A study of Homo sapiens with 9 samples.

Results

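Iron handling was followed in SW1783, an established line from a human astrocytoma, through 10 genes that break down heme, store iron, take it up, sense it, or control lipid peroxidation. The genes are HMOX1, BLVRB, FTH1, FTL, NCOA4, TFRC, SLC11A2, IREB2, GPX4 and ACSL4. They were taken by gene symbol from a table of 60675 genes, and all 10 passed the filter on low counts that left 18356 genes tested. RNA-seq had been done on 9 samples after 24 h of treatment. Of the 9 libraries, 3 came from cells given an extract of Poria Cocos, a fungus, at 20, 100 or 500 µg/mL, and 3 from cells given an extract of Atractylodis Rhizoma, a plant rhizome, at the same doses. Both extracts had been prepared in 70% ethanol. The other 3 libraries were replicates 1, 2 and 3 of the DMSO vehicle. Vehicle is 0.1% DMSO in the sample labels and 2% in the series design, and no DMSO percentage is given for the treated cells. All cells shared L-15 medium with 10% serum, and all libraries carry 1 batch letter.

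Cells take up iron through the transferrin receptor and release it into the cytosol through SLC11A2, and they store the excess inside a ferritin shell of FTH1 and FTL subunits. Heme oxygenase opens the heme ring and frees its iron, carbon monoxide and biliverdin, which biliverdin reductases turn into bilirubin. Control is known at 2 steps. Transcription of HMOX1 and of both ferritin genes is raised by NRF2 and held down by BACH1, a repressor that binds heme. Iron regulatory proteins, IREB2 among them, bind stem-loops called iron-responsive elements in the untranslated regions of the mRNA. Bound near the 5′ end they block translation of ferritin, and bound in the 3′ end of TFRC mRNA they protect it from decay. Free iron also drives lipid peroxidation, which GPX4 reverses and ACSL4 feeds, and runaway lipid peroxidation kills cells by ferroptosis. An mRNA count shows the net of transcription and decay without telling them apart, and it does not show the block on ferritin translation.

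The stem-loops are shown because they are the sequence that separates these genes by their known mode of control. Annotated untranslated regions of GENCODE 29 transcripts (GRCh38) were searched in the direction of the transcript for CNNNNNCAGTGN, with at least 4 of the 5 bases between the C and the loop paired to the bases after the loop, G to U pairs allowed. The motif was found in 5 of the 10 genes, at 8 sites, and in 3 of them with all 5 pairs. Of 19659 protein-coding genes searched the same way, 5.96% held a match and 0.834% one with all 5 pairs. Capitals mark the loop, CAGTG with the base after it, and each window of 30 bases is given as DNA of the transcript's strand.
FTH1, 5′ UTR, chr11:61967574-61967603, minus strand: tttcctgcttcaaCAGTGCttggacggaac
FTL, 5′ UTR, chr19:48965334-48965363, plus strand: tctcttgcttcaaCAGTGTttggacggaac
TFRC, 3′ UTR, chr3:196050979-196051008, minus strand: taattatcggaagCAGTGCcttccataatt
TFRC, 3′ UTR, chr3:196050575-196050604, minus strand: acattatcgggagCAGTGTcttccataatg
TFRC, 3′ UTR, chr3:196050510-196050539, minus strand: tctgtatcggagaCAGTGAtctccatatgt
TFRC, 3′ UTR, chr3:196050463-196050492, minus strand: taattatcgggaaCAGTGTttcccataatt
SLC11A2, 3′ UTR, chr12:50988269-50988298, minus strand: tagccatcagagcCAGTGTgtttctatggt
IREB2, 3′ UTR, chr15:78500968-78500997, plus strand: gcatttgctttcaCAGTGAtgagtgagagg
The sites in FTH1, FTL and TFRC had all 5 pairs, and those in SLC11A2 and IREB2 had 4. The ferritin sites lie in the 5′ region and the TFRC sites in the 3′ region, the positions known for these elements. The match in IREB2, which encodes a protein that binds such elements, is a match of letters only, and no function is claimed for it. No match was found in HMOX1, BLVRB, NCOA4, GPX4 or ACSL4, which says only that these letters are not in their annotated untranslated regions.

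Library totals ran from 40269708 to 48905602 counts, so that even BLVRB, the member with the fewest counts, had at least 959 counts in every library. Mitochondrial transcripts took 5.38% to 6.97% of counts. Values are CPM, read counts relative to the library total, scaled with TMM factors, and tests used edgeR's quasi-likelihood fit with Benjamini-Hochberg adjustment over the 18356 genes. Each extract and dose has 1 library, so a test of 1 dose rests on the spread of the 3 vehicle libraries, and a dose trend on the scatter around its line. The fit also draws on the spread of all 18356 genes to steady that of each gene. Very small p-values therefore do not rest on a gene's own libraries alone. The labels do not say that the replicates were separate cultures, so the spread that each p-value sets a change against may be technical. Of 12 astroglial and glioma markers, 6 were under 1 CPM in every library, among them GFAP, S100B, AQP4, ALDH1L1 and SOX2. VIM averaged 5985, CD44 2747, SOX9 83.8 and SLC1A3 21.4 CPM in vehicle cells. Of 12 erythroid markers 11 were under 1 CPM in every library. Their summed level was 7.45 to 8.68 CPM in treated libraries and 7.54 to 8.32 CPM in vehicle libraries, nearly all of it EPOR. Other marker sums moved with treatment. Astroglial and glioma markers summed to 8356 to 9052 CPM in treated and 9615 to 10060 CPM in vehicle libraries, and 7 mesenchymal markers to 10370 to 11830 CPM in treated and 12350 to 12580 CPM in vehicle libraries. The 9 myeloid markers, mostly CD68, summed to 133 to 165 CPM in treated and 176 to 184 CPM in vehicle libraries, with 6 of them under 1 CPM throughout. The 6 hepatocyte markers summed to 8.12 to 8.88 CPM in treated and 9.26 to 9.57 CPM in vehicle libraries, with 4 under 1 CPM throughout. Their part in the results below was not tested. In bulk RNA a change in the share of cells that make a transcript and a change in the amount per cell cannot be told apart.

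Ferritin mRNAs were among the most abundant mRNAs of these cells. In vehicle cells, per kilobase of the longest transcript, FTL stood at 1297 ± 68.9 CPM and FTH1 at 1219 ± 9.42 CPM (SD, n = 3), ranks 23 and 26 of 18214 genes. TFRC followed at 217 ± 3.07 CPM per kilobase, rank 210, and GPX4 at 101 ± 2.66, rank 519. ACSL4 had 65.3 ± 0.778, HMOX1 47.6 ± 0.538 and NCOA4 44.1 ± 0.598 CPM per kilobase. BLVRB had 17.9 ± 0.952, SLC11A2 9.38 ± 0.259 and IREB2 8.47 ± 0.226 CPM per kilobase. The gap between FTL and FTH1 was little wider than the SD of FTL, whereas every later step in this order was larger than the SD of both neighbours together. Replicate spread was small: the coefficient of variation over the vehicle libraries ran from 0.773% for FTH1 to 5.33% for BLVRB.

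Heme oxygenase 1, the inducible enzyme of heme breakdown, changed most of the 10 genes at 500 µg/mL Atractylodis, and it lay on different sides of vehicle at low and high doses. HMOX1 (chromosome 22, plus strand, 35380361 to 35394214, GRCh38) had 68.7, 73.6 and 105 CPM in cells given Poria at 20, 100 and 500 µg/mL. In cells given Atractylodis at the same doses it had 77.05, 85.6 and 202 CPM. The 3 vehicle libraries had 86.8, 85.8 and 87.7 CPM, a mean of 86.8 ± 0.981 CPM (SD, n = 3). Both libraries at 500 µg/mL thus lay above all vehicle libraries, and the 4 libraries at lower doses lay below them, 1 of them by a margin of under 1 CPM.

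HMOX1 rose 2.33-fold with 500 µg/mL Atractylodis (log2 change 1.22 ± 0.04 SE, edgeR adjusted p = 1e-17) and 1.21-fold with 500 µg/mL Poria (0.28 ± 0.04, adjusted p = 4.3e-06). At 20 µg/mL it fell, by 0.34 on the log2 scale with Poria (adjusted p = 3.8e-06) and by 0.17 with Atractylodis (adjusted p = 0.0042). At 100 µg/mL it fell by 0.24 with Poria (adjusted p = 0.00012), while with Atractylodis the change was -0.02 (adjusted p = 0.78). The fall with 20 µg/mL Atractylodis lost its call with library totals as the scaling (-0.11, adjusted p = 0.06) and with DESeq2 (-0.17, adjusted p = 0.23).

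Over equal dose steps the HMOX1 trend did not pass in edgeR with either extract, while DESeq2 called it with Atractylodis (0.35, adjusted p = 0.021) and not with Poria (adjusted p = 0.65). The slope per step, where the steps 0 to 3 stand for vehicle, 20, 100 and 500 µg/mL, was 0.35 ± 0.11 with Atractylodis (adjusted p = 0.075) and 0.09 ± 0.12 with Poria (adjusted p = 0.65). With dose entered as µg/mL on a linear scale, the change per 500 µg/mL of Atractylodis was 1.35 (adjusted p = 0.0025). Within the treated libraries alone, where the vehicle level plays no part, the slope per step was 0.71 with Atractylodis (edgeR adjusted p = 0.11, DESeq2 0.0011) and 0.31 with Poria (edgeR adjusted p = 0.48, DESeq2 0.45). On the linear scale these became 1.48 (adjusted p = 1.7e-13) and 0.64 (adjusted p = 8.4e-07) per 500 µg/mL. Leaving out the 20 µg/mL Atractylodis library gave 1.24 per step (adjusted p = 0.0041) and leaving out the 100 µg/mL one 0.70 (adjusted p = 0.00065) for the slope within Atractylodis libraries. Both Atractylodis slopes rest on the library at 500 µg/mL: without it the trend from vehicle was 0.02 (adjusted p = 0.95) and the slope within treated libraries 0.15 (adjusted p = 0.53). The Poria slope within treated libraries passed when any 1 Atractylodis library was left out (0.31, adjusted p = 0.019 to 0.023), and without 500 µg/mL Poria it was 0.10 (adjusted p = 1).

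**Figure D1:**
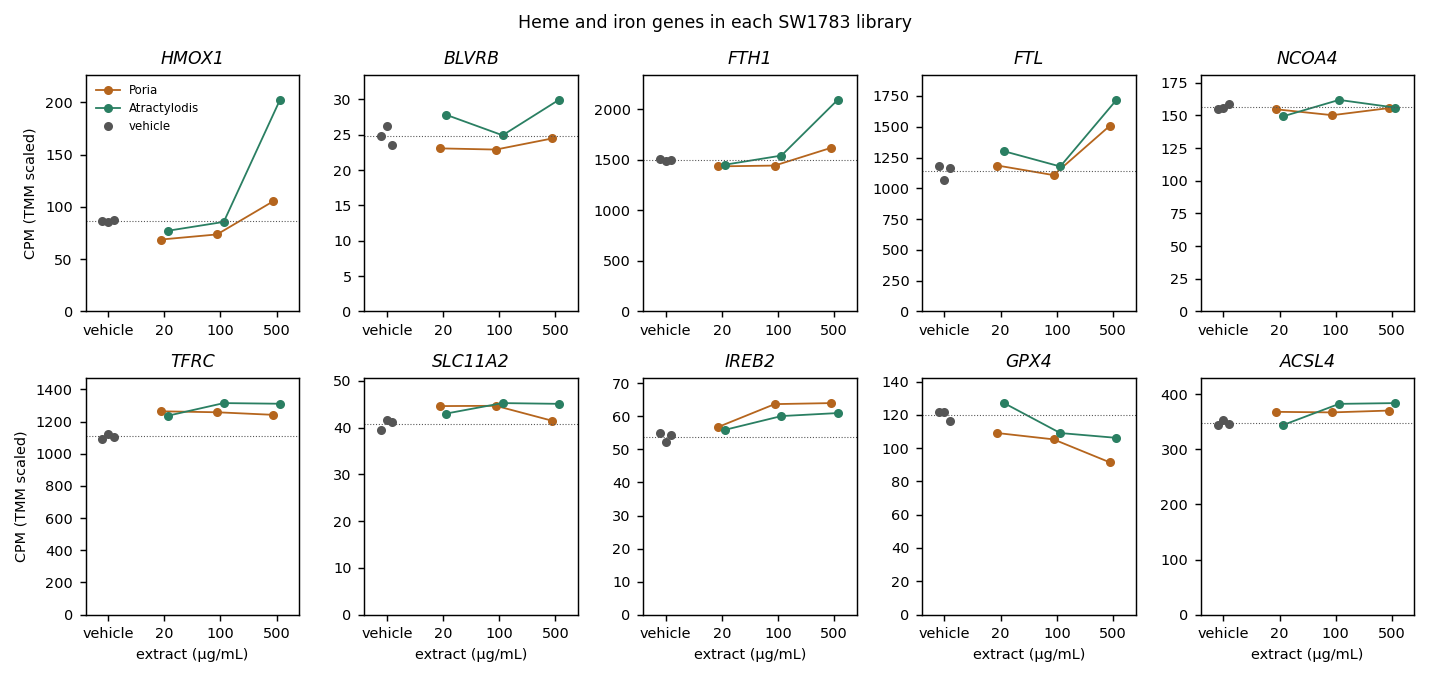
Level of each gene in each of the 9 libraries. The vertical axis is TMM-scaled CPM from 0, the horizontal axis the extract dose in µg/mL with the 3 vehicle libraries at the left, lines join the single libraries of an extract, and the dotted line is the vehicle mean. HMOX1, FTH1 and FTL are highest at 500 µg/mL of either extract, TFRC is higher than vehicle at all doses, and GPX4 is lowest with 500 µg/mL Poria.

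Biliverdin reductase B, which reduces biliverdin and flavins, passed the test at 1 of the 6 doses. BLVRB (chromosome 19, minus strand, 40447765 to 40465840) had 23.1, 22.9 and 24.5 CPM with Poria at 20, 100 and 500 µg/mL and 27.8, 24.9 and 29.9 CPM with Atractylodis. Vehicle libraries had 24.85, 26.2 and 23.5 CPM. Only the Atractylodis libraries at 20 and 500 µg/mL lay above all vehicle libraries. The rise at 500 µg/mL Atractylodis was 1.2-fold (0.27 ± 0.06, adjusted p = 0.0015), but with DESeq2 its adjusted p was 0.25. The Atractylodis slope of 0.08 did not pass (adjusted p = 0.057), and with transcript GC content and length corrected for it was 0.11 (adjusted p = 0.005). The slope also passed without the Atractylodis library at 20 µg/mL (0.08, adjusted p = 0.045) or at 100 µg/mL (0.10, adjusted p = 0.029), with library totals (0.10, adjusted p = 0.019) and with no filter on low counts (0.08, adjusted p = 0.023). At 20 µg/mL Atractylodis the change of 0.16 did not pass (adjusted p = 0.076), but did with library totals (adjusted p = 0.016) and without vehicle replicate 2 (adjusted p = 0.015).

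Both ferritin subunits rose at 500 µg/mL of either extract. FTH1, the heavy subunit, whose ferroxidase centre oxidises iron (chromosome 11, minus strand, 61959718 to 61967660), had 1435, 1443 and 1618 CPM with Poria and 1452, 1542 and 2093 CPM with Atractylodis at the 3 doses. Vehicle libraries had 1507, 1485 and 1503 CPM, a mean of 1498 ± 11.6 CPM. Both libraries at 500 µg/mL and the one at 100 µg/mL Atractylodis were above all vehicle libraries, and the other 3 were below all of them. FTH1 rose 1.4-fold with 500 µg/mL Atractylodis (0.48 ± 0.04, adjusted p = 6.6e-10) and 1.08-fold with 500 µg/mL Poria (0.11 ± 0.04, adjusted p = 0.027). The small Poria rise did not pass without vehicle replicate 1 (adjusted p = 0.061) or replicate 3 (adjusted p = 0.073). FTH1 had a rising slope over Atractylodis doses of 0.13 ± 0.03 per step (adjusted p = 0.012), and of 0.26 within the treated libraries alone (adjusted p = 0.0013). Both rest on the library at 500 µg/mL: without it they were 0.02 (adjusted p = 0.7) and 0.09 (adjusted p = 0.42).

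FTL, the light subunit that helps form the iron core (chromosome 19, plus strand, 48965301 to 48966878), had 1185, 1107 and 1507 CPM with Poria and 1301, 1177 and 1718 CPM with Atractylodis. Vehicle libraries had 1182, 1070 and 1165 CPM, a mean of 1139 ± 60.5 CPM. The libraries at 500 µg/mL were the highest of the 9 with either extract. FTL rose 1.51-fold with 500 µg/mL Atractylodis (0.59 ± 0.05, adjusted p = 9.8e-08) and 1.32-fold with 500 µg/mL Poria (0.40 ± 0.05, adjusted p = 7.7e-06). With 20 µg/mL Atractylodis it rose 1.14-fold (0.19 ± 0.05, adjusted p = 0.011), a call lost with DESeq2 (adjusted p = 0.22) and with the GC and length correction (adjusted p = 0.16). Its Atractylodis slope of 0.17 did not pass in edgeR (adjusted p = 0.055), and passed with DESeq2 (adjusted p = 0.017), library totals (0.031), the GC and length correction (0.022) and dose on a linear scale (0.023). The same slope passed in 3 of the fits that left out 1 library, namely without 100 µg/mL Poria (0.16, adjusted p = 0.02), without 500 µg/mL Poria (0.15, adjusted p = 0.036) and without 100 µg/mL Atractylodis (0.21, adjusted p = 0.0062).

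Together FTH1 and FTL made up 0.262%, 0.261% and 0.321% of all counts with Poria at 20, 100 and 500 µg/mL and 0.279%, 0.273% and 0.390% with Atractylodis. In vehicle libraries they made up 0.259%, 0.249% and 0.259%. The 2 libraries at 500 µg/mL held the largest ferritin shares. The ratio of FTL to FTH1 per kilobase was 1.16, 1.07 and 1.3 with Poria and 1.25, 1.07 and 1.15 with Atractylodis, against 1.10, 1.01 and 1.08 in vehicle libraries. It was above all vehicle libraries in 4 of the 6 treated ones, and no test was made of it. Ferritin genes have many processed copies that could share reads. Of 25 FTH1 pseudogenes in the table, the summed counts were 0.177% to 0.226% of parent and copies together, and of 16 FTL pseudogenes 0.0357% to 0.061%. Adding them to the parent changed no call. FTH1 overlaps BEST1 on the opposite strand, which had 417 to 681 counts beside at least 58335 for FTH1, and whether the counting used strand is not stated.

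NCOA4, the receptor that carries ferritin to the lysosome to free its iron (chromosome 10, minus strand, 46005088 to 46030714), passed the test at none of the 6 doses and in neither trend. It had 155, 150.2 and 156 CPM with Poria and 149, 162 and 156 CPM with Atractylodis. Vehicle libraries had 154.9, 155.5 and 159 CPM. Where ferritin rose, at 500 µg/mL, the NCOA4 change was -0.0035 ± 0.04 with Atractylodis (adjusted p = 0.96) and -0.01 ± 0.04 with Poria (adjusted p = 0.9). None of the 9 planned comparisons called it, and none had an unadjusted p under 0.05 for it. After the GC and length correction it passed at 1 dose, 100 µg/mL Poria (-0.12, adjusted p = 0.018), and with library totals at 100 µg/mL Atractylodis (0.10, adjusted p = 0.048).

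**Figure D2:**
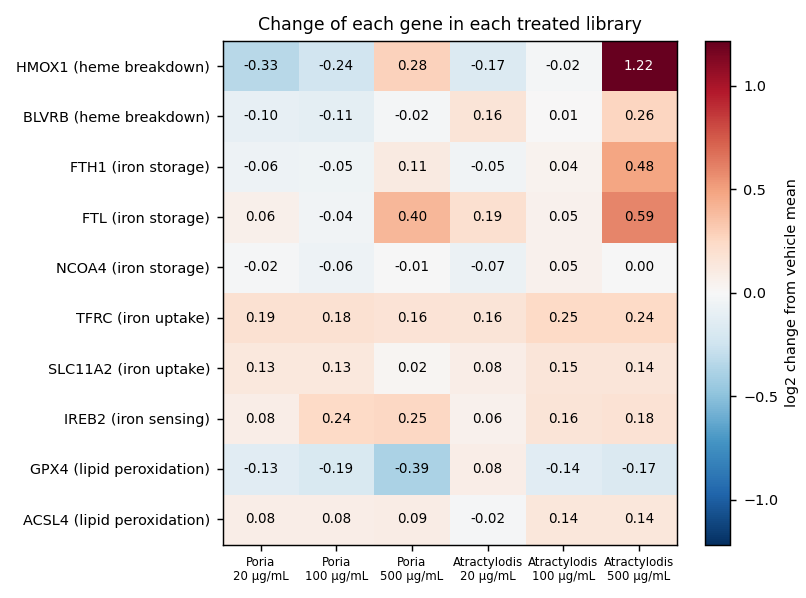
Log2 change of TMM-scaled CPM in each treated library from the vehicle mean, with genes in rows by role and libraries in columns by extract and dose. Red is higher and blue lower than vehicle, and the printed numbers are the plotted values. HMOX1 changes direction between the low doses and 500 µg/mL, FTH1 and FTL are highest at 500 µg/mL, and TFRC and IREB2 are above 0 in all 6 columns.

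The transferrin receptor, which brings transferrin-bound iron into the cell, was higher in every treated library at every dose. TFRC (chromosome 3, minus strand, 196027183 to 196082189) had 1264, 1258 and 1242 CPM with Poria at 20, 100 and 500 µg/mL and 1236, 1315 and 1311 CPM with Atractylodis. Vehicle libraries had 1093, 1125 and 1107 CPM, a mean of 1108 ± 15.7 CPM. All 6 treated libraries lay above all 3 vehicle libraries, as they did for 12.4% of the genes tested. TFRC rose in treated against vehicle libraries by 0.20 ± 0.04 on the log2 scale (adjusted p = 0.00099), and it rose at each of the 6 doses, 1.11- to 1.19-fold. Its slope was 0.08 per step with Atractylodis (adjusted p = 0.009) and 0.06 with Poria (adjusted p = 0.047). The Poria slope lost its call without the library at 100 µg/mL of Poria (0.05, adjusted p = 0.13) or of Atractylodis (0.06, adjusted p = 0.054) and without any 1 vehicle library (adjusted p = 0.11 to 0.15). Within the treated libraries neither slope of TFRC passed.

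The ratio of TFRC to FTH1 in CPM sets the mRNA of an iron uptake gene beside that of a storage gene, and measures neither process. It was 0.88, 0.872 and 0.767 with Poria at 20, 100 and 500 µg/mL and 0.852, 0.853 and 0.626 with Atractylodis, against 0.726, 0.757 and 0.737 in vehicle libraries. At the 2 lower doses the ratio was above all vehicle libraries with both extracts. With the top dose it was just above them with Poria and below all of them with Atractylodis. No test was made of this ratio, and it was not corrected for GC content (41.5% in TFRC and 50.1% in FTH1).

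SLC11A2, the divalent metal transporter that moves iron out of endosomes (chromosome 12, minus strand, 50979401 to 51028566), had 44.6, 44.7 and 41.5 CPM with Poria and 43.0, 45.2 and 45.1 CPM with Atractylodis. Vehicle libraries had 39.5, 41.7 and 41.2 CPM. All treated libraries but 500 µg/mL Poria lay above all vehicle libraries. SLC11A2 rose 1.11-fold at 100 µg/mL Atractylodis (0.15 ± 0.05, adjusted p = 0.033) and at 500 µg/mL Atractylodis (0.14 ± 0.05, adjusted p = 0.033). Both calls were lost without vehicle replicate 1 (adjusted p = 0.16 and 0.15), with DESeq2 (0.46 and 0.48) and with the GC and length correction (0.31 and 0.23). The change in treated against vehicle libraries was 0.11 ± 0.04 (adjusted p = 0.062), and it passed without 500 µg/mL Poria (0.13, adjusted p = 0.019) or 20 µg/mL Atractylodis (0.12, adjusted p = 0.041) and with library totals (0.18, adjusted p = 0.0045). With Poria the changes of 0.13 at 20 and at 100 µg/mL did not pass (adjusted p = 0.08 and 0.063), but both did without vehicle replicate 2 (0.035 and 0.026) and with library totals (0.02 and 0.004).

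IREB2, the iron regulatory protein that is destroyed when iron is plentiful (chromosome 15, plus strand, 78437431 to 78501456), had 56.9, 63.7 and 64.0 CPM with Poria and 56.0, 60.1 and 61.0 CPM with Atractylodis. Vehicle libraries had 54.9, 52.2 and 54.3 CPM. All 6 treated libraries lay above all vehicle libraries, as they did for 12.4% of the genes tested, by the least at 20 µg/mL. The slope was 0.09 ± 0.02 per step with Poria (adjusted p = 0.0014) and 0.06 ± 0.02 with Atractylodis (adjusted p = 0.017). Within the treated libraries neither slope passed (0.09 with Poria, adjusted p = 0.18, and 0.06 with Atractylodis, adjusted p = 0.31). IREB2 rose 1.19-fold at 500 µg/mL Poria (0.25 ± 0.05, adjusted p = 0.00013) and 1.13-fold at 500 µg/mL Atractylodis (0.18 ± 0.05, adjusted p = 0.0041). It also rose at 100 µg/mL of Poria (0.24, adjusted p = 0.00032) and of Atractylodis (0.16, adjusted p = 0.014). With DESeq2 none of these 4 single doses passed (adjusted p = 0.077 to 0.34). The Atractylodis slope lost its call without the Atractylodis libraries at 100 µg/mL (adjusted p = 0.06) or 500 µg/mL (0.12) and without vehicle replicate 2 (0.062). In treated against vehicle libraries IREB2 rose by 0.16 ± 0.05 (adjusted p = 0.014), which did not pass without vehicle replicate 2 (adjusted p = 0.095) or 3 (0.053).

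GPX4, the selenoenzyme that reduces lipid peroxides in membranes, was the only one of the 10 genes that fell along a dose trend. GPX4 (chromosome 19, plus strand, 1103926 to 1106791) had 109, 105 and 91.5 CPM with Poria at 20, 100 and 500 µg/mL and 127, 109 and 106 CPM with Atractylodis. Vehicle libraries had 122, 121.5 and 116 CPM, a mean of 119.9 ± 3.15 CPM. All treated libraries lay below all vehicle libraries except 20 µg/mL Atractylodis, which was the highest of the 9. GPX4 fell by 0.13 ± 0.02 per step with Poria (adjusted p = 0.00038) and by 0.06 ± 0.02 with Atractylodis (adjusted p = 0.042). At 500 µg/mL Poria it fell to 0.763 of the vehicle level (-0.39 ± 0.04, adjusted p = 8.7e-08), and at 500 µg/mL Atractylodis to 0.886 of it (-0.17 ± 0.04, adjusted p = 0.0016). It also fell at 20 µg/mL Poria (-0.14, adjusted p = 0.019), 100 µg/mL Poria (-0.19, adjusted p = 0.0012) and 100 µg/mL Atractylodis (-0.14, adjusted p = 0.014). Of these 5 falls, DESeq2 called the one at 500 µg/mL Poria and gave the others an adjusted p of 0.095 to 0.31. The fall at 20 µg/mL Poria also did not pass without vehicle replicate 1 (-0.13, adjusted p = 0.052). With library totals as the scaling the falls at 500 and 100 µg/mL Atractylodis and at 20 µg/mL Poria did not pass either (adjusted p = 0.07, 0.13 and 0.12).

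Within the treated libraries GPX4 fell by 0.13 per step with each extract (adjusted p = 0.03 for Poria and 0.017 for Atractylodis). Each of these slopes needed particular libraries. The Poria slope did not pass without the Poria library at 20 µg/mL (-0.20, adjusted p = 0.16) or at 500 µg/mL (-0.05, adjusted p = 1) or without vehicle replicate 1 (-0.13, adjusted p = 0.052). The Atractylodis one did not pass without the Atractylodis library at 20 µg/mL (-0.04, adjusted p = 0.89) or 500 µg/mL (-0.22, adjusted p = 0.057), nor with the GC and length correction (-0.07, adjusted p = 0.16). With library totals the Poria slope did not pass (-0.11, adjusted p = 0.085), and with dose on a linear scale neither did (adjusted p = 0.064 for Poria and 0.18 for Atractylodis). In treated against vehicle libraries the change was -0.15 ± 0.08 (adjusted p = 0.2), and it passed when the 20 µg/mL Atractylodis library was left out (-0.20, adjusted p = 0.0077) and with no filter on low counts (-0.15, adjusted p = 0.007). The Atractylodis trend that includes vehicle did not pass without 100 µg/mL Poria (adjusted p = 0.051), 100 µg/mL Atractylodis (0.13), 500 µg/mL Atractylodis (0.4), vehicle replicate 1 (0.088) or vehicle replicate 2 (0.079), nor with library totals as the scaling (-0.04, adjusted p = 0.28).

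ACSL4, which loads the polyunsaturated fatty acids that peroxidise onto coenzyme A (chromosome X, minus strand, 109624244 to 109733403), had 368, 367 and 371 CPM with Poria and 344, 383 and 384 CPM with Atractylodis. Vehicle libraries had 345, 353 and 347 CPM. All treated libraries lay above all vehicle libraries but 20 µg/mL Atractylodis, which lay below them. ACSL4 rose 1.1-fold at both 100 µg/mL Atractylodis (0.14 ± 0.04, adjusted p = 0.0076) and 500 µg/mL Atractylodis (0.14 ± 0.04, adjusted p = 0.0043). The changes with Poria, 1.05- to 1.06-fold, did not pass (adjusted p = 0.068 to 0.14). At 20, 100 and 500 µg/mL Poria all 3 did without vehicle replicate 2 (adjusted p = 0.039, 0.042 and 0.012) and with library totals (0.018, 0.0027 and 0.00079). The Atractylodis slope of 0.05 (adjusted p = 0.051) passed without 20 µg/mL Poria, 500 µg/mL Poria or 20 µg/mL Atractylodis (adjusted p = 0.028 to 0.035), with DESeq2 (0.024) and with library totals (0.0046). Treated against vehicle libraries differed by 0.09 (adjusted p = 0.12), and by 0.10 without 20 µg/mL Atractylodis (adjusted p = 0.019). ACSL4 overlaps KCNE5 on the same strand, which had 28 to 53 counts beside at least 13868 for ACSL4.

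**Figure D3:**
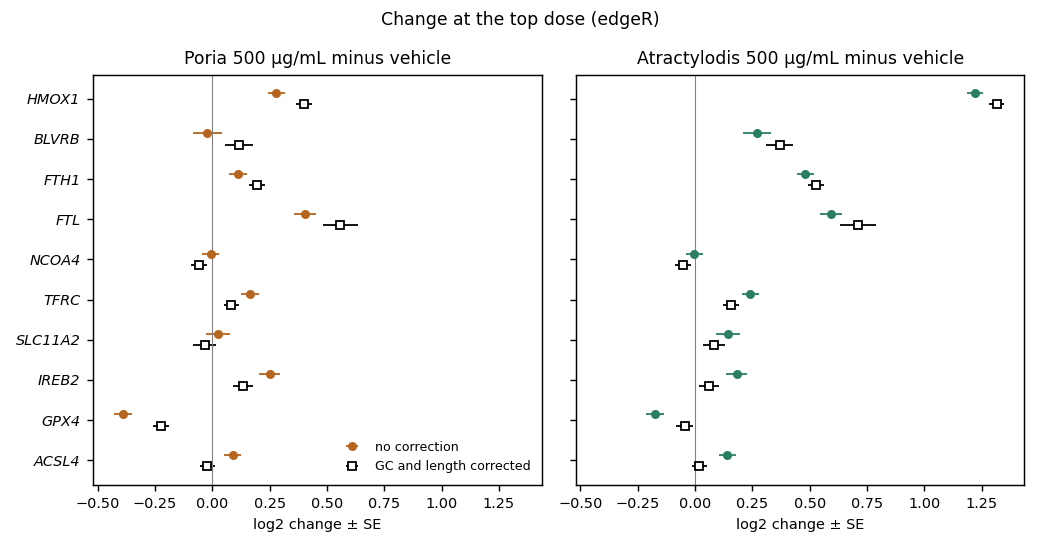
Log2 change at 500 µg/mL of Poria (left) and of Atractylodis (right) from vehicle, with bars of ± 1 SE from the edgeR fit. Filled circles are without and open squares with GC content and transcript length corrected for. HMOX1, FTH1 and FTL lie to the right of 0 either way, while with the correction TFRC at Poria, and IREB2, GPX4, SLC11A2 and ACSL4 at Atractylodis, move to where they no longer passed the test.

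Many genes outside iron handling changed too, so each count of members is set beside the share of the 18356 genes called in the same comparison. At 500 µg/mL Poria 5 members rose and 1 fell, where 31.5% of all genes were called (14.4% higher and 17.1% lower), and at 500 µg/mL Atractylodis 8 rose and 1 fell, where 31.0% were called (14.4% higher and 16.6% lower). The members' median log2 change was 0.10 at 500 µg/mL Poria and 0.21 at 500 µg/mL Atractylodis, beside 0.0007 and 0.01 over all genes tested. In the Poria dose trend 2 members rose and 1 fell, where 20.8% of all genes were called (9.17% higher and 11.6% lower). In the Atractylodis dose trend 3 rose and 1 fell, where 19.0% were called (8.49% higher and 10.5% lower). With dose on the linear scale none of the 3 Poria trends passed (TFRC, adjusted p = 0.69, IREB2, 0.21, and GPX4, 0.059), nor did the Atractylodis trends of TFRC (0.44), IREB2 (0.47) and GPX4 (0.42). In treated against vehicle libraries 2 were called (25.3%). Within the treated libraries 1 member was called for Poria (2.45%) and 2 for Atractylodis (4.04%). At 20 µg/mL 3 members were called with Poria (19.9%) and 3 with Atractylodis (17.5%), and at 100 µg/mL 4 with Poria (25.5%) and 5 with Atractylodis (25.2%). The lower single doses were added after the values had been seen, and all these contrasts share the vehicle libraries. HMOX1, FTH1 and FTL had both libraries at 500 µg/mL above the other 7, as did 5.30% of the genes tested. For members with only some treated libraries outside the vehicle range, the share over all genes was not counted.

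Poria and Atractylodis were compared directly in 10 genes over 2 contrasts, and no member passed in edgeR on the 18356 genes. At matched doses, Poria minus Atractylodis was -0.46 for HMOX1 (95% interval -0.94 to 0.02, adjusted p = 0.38), -0.16 for FTH1 (-0.28 to -0.05, adjusted p = 0.21) and -0.14 for FTL (-0.22 to -0.05, adjusted p = 0.15). It was -0.23 for BLVRB (-0.34 to -0.12, adjusted p = 0.081) and -0.16 for GPX4 (-0.25 to -0.08, adjusted p = 0.092). These 5 genes were lower with Poria at each of the 3 doses, and the share of all genes with that pattern was not counted. They are also the 5 members with the highest GC content. With the GC and length correction their differences were smaller and none passed in edgeR (adjusted p = 0.13 to 0.42). They became -0.42 for HMOX1, -0.14 for FTH1, -0.10 for FTL, -0.18 for BLVRB and -0.11 for GPX4. For TFRC the difference was -0.04 (-0.11 to 0.04, adjusted p = 0.71), for NCOA4 -0.02 (-0.10 to 0.06) and for ACSL4 -0.0047 (-0.08 to 0.07). Only 0.163% of all genes were called in this contrast. Of the members, 4 had an unadjusted p under 0.05 (BLVRB, FTH1, FTL and GPX4), and the share of all genes under it was not counted. DESeq2 called 2 members (FTL, adjusted p = 0.038, and GPX4, 0.043). With no filter on low counts edgeR called these 4 (adjusted p = 0.0039 to 0.031). FTH1 passed when a 20 µg/mL library of either extract was left out (-0.23, adjusted p = 0.04 without Poria and 0.039 without Atractylodis).

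The difference between the 2 dose trends likewise called 0 members with edgeR and 0 with DESeq2, where edgeR called 1.16% of all genes. Unadjusted p was under 0.05 for 3 members, and the share of all genes under it was not counted. With no filter on low counts edgeR called FTH1 (-0.10, adjusted p = 0.00063) and BLVRB (-0.10, adjusted p = 0.032). Poria minus Atractylodis was -0.26 per step for HMOX1 (95% interval -0.575 to 0.05, adjusted p = 0.46), -0.10 for FTH1 (-0.17 to -0.02, adjusted p = 0.25) and -0.07 for GPX4 (-0.12 to -0.02, adjusted p = 0.16). The single libraries at 500 µg/mL held 105 CPM of HMOX1 with Poria and 202 CPM with Atractylodis, a ratio of 0.52. FTH1 stood at a ratio of 0.773, FTL at 0.877 and GPX4 at 0.862 between those libraries. A missed threshold does not show that the extracts act alike on these genes.

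GC content of the transcripts moved with treatment across the whole transcriptome, and it touches several of the calls above. Over 11749 genes the log2 change from vehicle had a Spearman rho with GC content between -0.51 and -0.41 in 5 of the treated libraries and of -0.16 in the 20 µg/mL Atractylodis library. This is a description across genes, which are not independent replicates. The members span the range: ACSL4 has 37.4% GC, IREB2 38.3%, TFRC 41.5%, SLC11A2 43.0%, NCOA4 43.1%, FTH1 50.1%, FTL 56.3%, HMOX1 58.1%, BLVRB 58.2% and GPX4 62.5%. Genes were divided into 10 bins of GC content. In the bin of TFRC the median change in treated libraries was 0.05 with quartiles of -0.03 and 0.14, and TFRC at 0.20 lay above them. GPX4 at -0.15 lay inside the quartiles of its own bin, -0.22 and -0.01, and ACSL4 at 0.09 and IREB2 at 0.16 lay inside those of theirs.

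A correction for GC content and length, fitted as splines in each library, gave TFRC 0.12 ± 0.03 in treated against vehicle libraries (adjusted p = 0.012). The TFRC Atractylodis slope kept its call at 0.05 (adjusted p = 0.047), but its Poria slope did not (0.03, adjusted p = 0.28), nor did its change at 500 µg/mL Poria (0.08, adjusted p = 0.074). The GPX4 fall kept its call for the Poria slope (-0.07, adjusted p = 0.019) and at 500 µg/mL Poria (-0.22, adjusted p = 6e-05). It did not for the Atractylodis slope (-0.01, adjusted p = 0.65), at 500 µg/mL Atractylodis (-0.04, adjusted p = 0.41) or at 20 µg/mL (-0.02, adjusted p = 0.78) and 100 µg/mL of Poria (-0.04, adjusted p = 0.51). IREB2 kept its Poria slope (0.05, adjusted p = 0.041) and lost its Atractylodis slope (0.02, adjusted p = 0.39), its rises at 100 µg/mL (0.03, adjusted p = 0.74) and 500 µg/mL Atractylodis (0.06, adjusted p = 0.33) and its treated against vehicle difference (0.06, adjusted p = 0.31). The ACSL4 rises became 0.0003 and 0.02 at 100 and 500 µg/mL Atractylodis (adjusted p = 1 and 0.74). HMOX1, FTH1 and FTL, whose GC content lies above the middle of the range, had larger changes at 500 µg/mL with the correction than without, 1.32, 0.53 and 0.71 with Atractylodis and 0.40, 0.19 and 0.56 with Poria, and all of these passed.

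**Figure D4:**
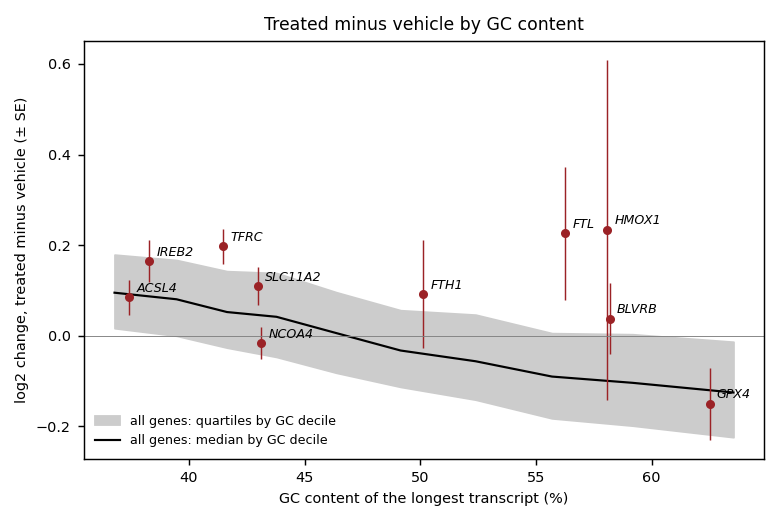
Log2 change of the 6 treated libraries from the 3 vehicle libraries (vertical axis, ± SE for the 10 named genes) against GC content of the longest transcript (horizontal axis, %). The black line and grey band are the median and quartiles of all genes in 10 bins of GC content, and the medians run from 0.10 at the low end to -0.13 at the high end. TFRC lies above the band at its GC content, FTL, HMOX1, FTH1 and BLVRB lie above it with wide error bars, and GPX4 lies inside it.

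The genes whose profile over the 6 treated libraries was most like a given member were found by the root mean square difference in log2 change from vehicle, among 11753 genes. For HMOX1 these were PLIN2, a lipid droplet coat protein (0.27), FTH1 (0.34) and GDF15, a stress-induced cytokine (0.35). At 500 µg/mL Atractylodis PLIN2 stood at 0.65 and GDF15 at 1.07, both below HMOX1, and at 500 µg/mL Poria GDF15 stood at -0.48. For FTH1 the nearest were RND3 (0.07), ENO2 (0.08) and MGST1, a microsomal glutathione transferase (0.08). For TFRC they were CD46, AKAP11 and WDR41, all at 0.02. The distance is not scaled for the size of the change, which was largest in HMOX1, so distances cannot be compared between members.

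The other genes of heme and iron metabolism moved in both directions, and their counts are to be read beside the 20.8% of all genes called in the Poria trend and the 19.0% in the Atractylodis trend. With dose on the linear scale, where 125 genes were called for Poria and 67 for Atractylodis, few list genes passed. Heme genes called were then 1 for Poria and 0 for Atractylodis, lipid peroxidation genes 3 for each, and regulators 0 for Poria and 1 for Atractylodis. Neither list of iron genes had any call on that scale. Fewer genes of each list passed in slopes within the treated libraries, where 2.45% (Poria) and 4.04% (Atractylodis) of all genes were called. There 2 heme genes rose with Poria and 1 fell with Atractylodis. Of iron uptake genes 1 fell and of iron sensing genes 1 rose, both with Poria. Of lipid peroxidation genes 4 rose with Poria, and 6 rose and 1 fell with Atractylodis. The 1 regulator called rose with Atractylodis. Counts below are for the trends, with vehicle as step 0. Of 19 listed genes of heme synthesis, transport and breakdown, 7 rose and 1 fell with Poria dose, and 5 rose and 1 fell with Atractylodis dose, with median slopes of 0.03 and 0.05 beside 0.0012 and 0.0033 over all genes. With Poria the heme and porphyrin exporter ABCG2 rose (slope 0.19, adjusted p = 8.8e-06), to 37.0, 43.3 and 48.6 CPM at the 3 doses, against 32.6 ± 0.572 CPM in vehicle cells. ABCB6, a porphyrin transporter, rose with a slope of 0.19 (adjusted p = 0.00045) and the heme-binding protein HEBP1 with one of 0.10 (adjusted p = 0.0079). With Atractylodis, ABCG2 rose (0.10, adjusted p = 0.0026), the other biliverdin reductase BLVRA rose (0.11, adjusted p = 0.0047), and HMOX2, the constitutive heme oxygenase, fell by 0.10 per step (adjusted p = 0.0046). HMOX2 had 40.7, 39.8 and 37.9 CPM with Poria and 44.1, 37.0 and 35.2 CPM with Atractylodis, against 43.1 ± 0.942 CPM in vehicle cells. Without the 500 µg/mL library of the same extract, 3 genes of the list were called for Poria and 0 for Atractylodis, and the adjusted p was 0.26 for HEBP1 with Poria and, with Atractylodis, 0.052 for ABCG2, 0.28 for BLVRA and 0.14 for HMOX2.

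Of 22 genes of iron uptake, release and reduction, 15 were tested. With Poria 1 rose and 2 fell, and with Atractylodis 3 rose and 1 fell, with median slopes of 0.01 for each. The zinc and iron importer SLC39A14 fell with Poria by 0.14 per step (adjusted p = 0.00017), to 170.3, 156 and 143 CPM, against 192 ± 3.6 CPM in vehicle cells. The lysosomal channel MCOLN1 fell with Poria (-0.11, adjusted p = 0.0066), and the metalloreductase STEAP2 rose with both extracts (0.13 with Poria, adjusted p = 0.00076, and 0.08 with Atractylodis, adjusted p = 0.016). With Atractylodis HFE, a partner of TFRC, rose (0.12, adjusted p = 0.0073), as did the ferric reductase CYBRD1 (0.06, adjusted p = 0.016). The iron exporter SLC40A1 was at 0 to 0.0701 CPM in treated libraries and a mean of 0.0079 CPM in vehicle libraries, and was not tested. With Atractylodis the list's 4 calls became 1 without its library at 100 or at 500 µg/mL, without vehicle replicate 1, or with the GC and length correction, under which MCOLN1 with Poria (adjusted p = 0.085) and CYBRD1 (0.14) and STEAP2 (0.25) with Atractylodis did not pass.

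Of 27 genes of iron sensing, iron chaperones and iron-sulfur assembly, 26 were tested. Of these 3 rose and 8 fell with Poria, and 1 rose and 4 fell with Atractylodis (median slopes -0.03 and -0.01). Over all genes falls also outnumbered rises, 11.6% against 9.17% with Poria and 10.5% against 8.49% with Atractylodis. PCBP1, which delivers iron to ferritin, fell with both extracts (-0.11 with Poria, adjusted p = 0.0014, and -0.07 with Atractylodis, adjusted p = 0.019). It had 167, 159 and 164 CPM with Poria and 186, 169 and 170.1 CPM with Atractylodis, against 199 ± 0.464 CPM in vehicle cells. IBA57, a mitochondrial iron-sulfur assembly factor, fell with both (-0.18 with Poria, adjusted p = 0.0019, and -0.17 with Atractylodis, adjusted p = 0.0037), and LYRM4, another one, fell with Atractylodis (-0.08, adjusted p = 0.016). FBXL5, the ubiquitin ligase subunit that removes IREB2 when iron is plentiful, rose with Poria (0.10, adjusted p = 0.0036). The 11 Poria calls became 6 without 500 µg/mL Poria, where FBXL5 did not pass (adjusted p = 0.2), and 7 without vehicle replicate 1. The 5 Atractylodis calls became 0 without 500 µg/mL Atractylodis, and 2 without 100 µg/mL Atractylodis or any 1 vehicle library.

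Of 32 genes of lipid peroxidation and ferroptosis, 27 were tested. With Poria 4 rose and 1 fell, and with Atractylodis 10 rose and 2 fell, with median slopes of 0.01 and 0.03. The cystine importer SLC7A11 led with both extracts, with 107, 131 and 183.5 CPM over Poria doses and 111, 134 and 207 CPM over Atractylodis doses, against 95.3 ± 1.54 CPM in vehicle cells. The glutathione synthesis subunit GCLM rose with both (0.14 with Poria, adjusted p = 0.0051, and 0.15 with Atractylodis, adjusted p = 0.0035). Thioredoxin reductase TXNRD1 rose with Poria (0.19, adjusted p = 0.0014), to 296, 339 and 460.0 CPM, against 295 ± 5.01 CPM in vehicle cells. DHCR7, which converts 7-dehydrocholesterol to cholesterol, fell with Atractylodis (-0.12, adjusted p = 0.0027). The 12 Atractylodis calls became 1 without 500 µg/mL Atractylodis, 7 without 100 µg/mL Atractylodis or vehicle replicate 2, 4 without vehicle replicate 1, 5 without vehicle replicate 3 and 7 with the GC and length correction. GCLM did not pass without the 500 µg/mL library of the same extract (adjusted p = 0.23 for Poria and 0.2 for Atractylodis), nor with that correction (0.12 and 0.089), and DHCR7 did not pass without 500 µg/mL Atractylodis (0.2).

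Of the 11 listed regulators of HMOX1 and ferritin transcription, 0 rose and 2 fell with Poria, and 2 rose and 1 fell with Atractylodis (median slopes -0.03 and 0.01). NFE2L2, which encodes NRF2, had 77.5, 76.4 and 81.0 CPM with Poria and 72.8, 76.8 and 77.9 CPM with Atractylodis, against 78.2 ± 3.24 CPM in vehicle cells, and passed in neither. KEAP1, which holds NRF2 down, fell with Poria (-0.06, adjusted p = 0.045), and HSF1 fell with both extracts (-0.07 each, adjusted p = 0.036 for Poria and 0.027 for Atractylodis). With Atractylodis BACH1 rose (0.08, adjusted p = 0.027), and so did SQSTM1, an autophagy receptor that binds KEAP1 (0.15, adjusted p = 0.0018). Several of these calls were lost in other fits. Without 500 µg/mL Atractylodis the adjusted p was 0.22 for SQSTM1 and 0.52 for BACH1, and with the GC and length correction KEAP1 (0.55), HSF1 (0.46 with Poria, 0.31 with Atractylodis) and BACH1 (0.31) did not pass. KEAP1 and HSF1 also lost their calls without 100 µg/mL Poria (adjusted p = 0.099 and 0.13 in the Poria trend) and in other fits that left out 1 library.

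**Figure D5:**
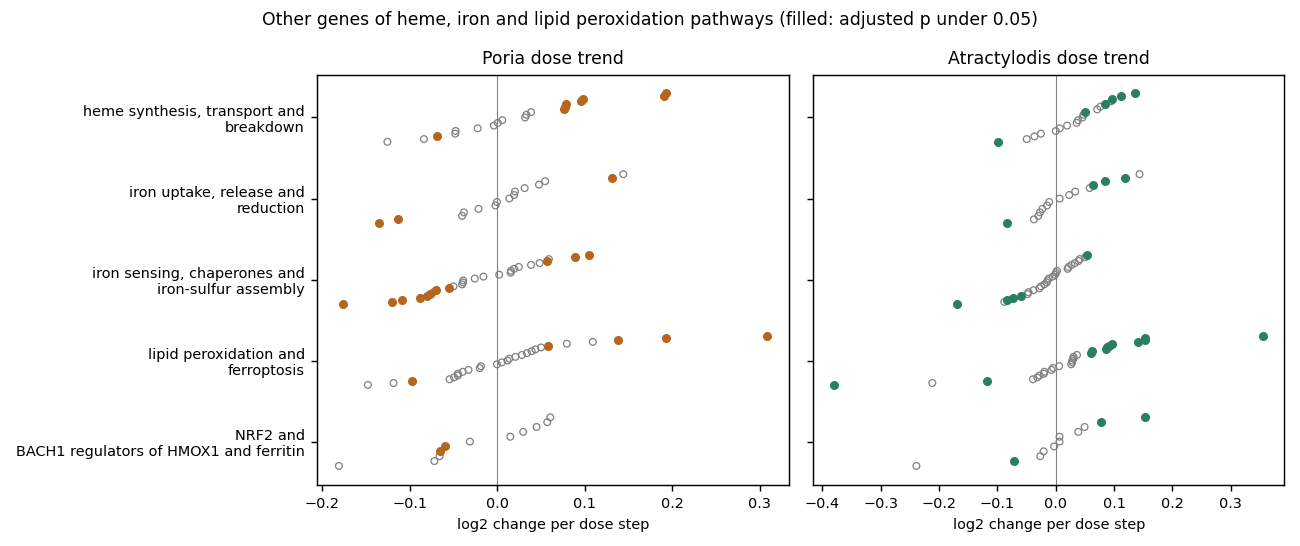
Slope in log2 change per dose step (horizontal axis) of the tested genes in 5 pathway lists, for Poria (left) and Atractylodis (right). Each point is a gene, and filled points passed the test in edgeR after adjustment over all genes. In most lists filled points lie on both sides of 0, and SLC7A11 is the farthest to the right in both panels.

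Promoters were searched for TGACNNNGC on either strand, the core letters at which NRF2 and BACH1 bind with small MAF partners, in 250 bases before to 50 after annotated starts (RefSeq, GRCh38.p14). Of 35116 promoters 13.3% held it. Entries matched 8 of the 10 genes, all but HMOX1 and FTH1, and only NCOA4 held the letters in this window. That is a description of the letters in these windows and says nothing of binding elsewhere.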

How the data were processed

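RNA of 9 SW1783 samples was measured by RNA-seq. Per the labels' protocols and the submitters' processing notes, MGIEasy RNA Directional libraries were made from RNA of integrity above 7 and read as pairs of 100 bases. The notes name FastQC 0.11.9, Trim Galore 0.6.5, STAR 2.7.3a, RSEM 1.3.3 and hg38; which annotation release was used is not given in the sources used here. Per the same notes the authors deposited expected counts from RSEM, and 24.8% of nonzero values had decimals. They were rounded to whole counts. Another 270 columns of the table were not used here. Symbols, positions, GC content and UTRs came from GENCODE 29, which matched 57055 of the 60675 genes.

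Tests used edgeR 4.0.16 in R 4.3.3 (TMM, filterByExpr with a count minimum of 10 and a total minimum of 15, robust quasi-likelihood fits, Benjamini-Hochberg over 18356 genes, threshold 0.05). Each SE was taken as the size of the log2 change over the root of its F statistic. Dose trends had 6 residual degrees of freedom, slopes within the treated libraries 4, treated against vehicle 7, extracts at matched doses 4, and single doses 2. The fits add to these by sharing the spread over all genes tested. Single doses at 20 and 100 µg/mL were added after the values had been seen. The edgeR fits were run on counts simulated with known changes, the same relative spread for all genes and no shift by GC content. That run cannot show how the tests behave under the gene-by-gene spread and GC-related shifts of these data. Alternatives were DESeq2 size factors, library totals, no filter, the DESeq2 1.42.0 Wald test, splines (5 degrees of freedom) on GC content and transcript length, dose in µg/mL, pseudogene counts added to the parent, and leaving out each library. Named genes are the 10 members, up to 3 called genes per pathway list and trend with the smallest p, and the 3 nearest profiles of HMOX1, FTH1 and TFRC. The members and lists were chosen with earlier results of these data known. Every member had at least 959 counts in every library, and both counting error and the number of libraries limit precision.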

Additional observations from a re-analysis of the deposited data

Results flagged for a closer look

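The dose slopes of 5 genes from the pathway lists differed between the extracts in the edgeR test of the difference itself (Poria minus Atractylodis, log2 per dose step). SQSTM1, the autophagy receptor that binds KEAP1, differed by -0.225 (adjusted p = 0.0038), with 560.4, 503 and 469 CPM over Poria doses and 634, 598 and 824 CPM over Atractylodis doses, against 554 ± 2.44 CPM in vehicle cells. SLC3A2, the chain that pairs with SLC7A11 to import cystine, differed by -0.14 (adjusted p = 0.0072), with 135, 129 and 121.5 CPM over Poria doses and 139, 143 and 174 CPM over Atractylodis doses, against 138 ± 3.45 CPM in vehicle cells. CHAC1, which degrades glutathione, differed by -0.26 (adjusted p = 0.015), with 4.42, 4.46 and 3.94 CPM over Poria doses and 5.16, 5.33 and 7.56 CPM over Atractylodis doses, against 5.29 ± 0.0714 CPM in vehicle cells. SLC39A14, the zinc and iron importer, differed by -0.11 (adjusted p = 0.015), and ABCG2, the heme and porphyrin exporter, by 0.0949 (adjusted p = 0.03). All 5 differences lost their calls without 500 µg/mL Poria (adjusted p = 0.37 to 0.44) or without 500 µg/mL Atractylodis (adjusted p = 0.31 to 0.6). ABCG2 also lost its call without 100 µg/mL Poria (0.067), 100 µg/mL Atractylodis (0.07), vehicle replicate 1 (0.051) or vehicle replicate 3 (0.052).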

How the results depend on the processing

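Counts of members called, and of all genes called, moved beyond 1.5 times as follows. With library totals, members called were 7 in the Atractylodis trend, 0 in the Poria slope within treated libraries and 4 in treated against vehicle, and 16 genes were called at matched doses. With no filter, 2 members and 555 genes were called in the difference of trends, 685 genes in the Poria slope within treated libraries, and 4 members and 583 genes at matched doses. With DESeq2, 7 members were called in the Atractylodis trend, 4 in the Atractylodis slope within treated libraries, 2 at matched doses and 5 at 500 µg/mL Atractylodis. DESeq2 called 328 genes in the difference of trends, 240 in the Poria slope within treated libraries, 153 at matched doses, 1480 at 500 µg/mL Poria and 1579 at 500 µg/mL Atractylodis. With the GC and length correction, members called were 1 in the Atractylodis slope within treated libraries, 1 in treated against vehicle and 5 at 500 µg/mL Atractylodis, with 487 genes in that slope and 13 at matched doses. With dose on the linear scale, 0 members and 125 genes were called in the Poria trend, 67 genes in the Atractylodis trend and 269 in the Atractylodis slope within treated libraries. The GPX4 change at 100 µg/mL Atractylodis turned to 0.0101 with the GC and length correction (adjusted p = 0.89). The cause of these shifts was not tested. Library totals moved the median of all genes by at most 0.08 on the log2 scale, and adding pseudogene counts changed no call.

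Leaving out each library in turn gave 2 to 3 members and 2550 to 4242 genes in the Poria trend, 1 to 6 and 1035 to 4297 in the Atractylodis trend (lowest without 500 µg/mL Atractylodis), and 0 members and 0 to 300 genes in their difference (0 genes without either 500 µg/mL library). It gave 0 to 2 members and 16 to 657 genes in the Poria slope within treated libraries, 0 to 4 and 102 to 1196 in the Atractylodis one, 0 to 1 and 3 to 368 at matched doses, and 1 to 5 and 2984 to 5354 in treated against vehicle. For the top doses it gave 5 to 7 and 5467 to 6322 for Poria, and 8 to 9 and 5328 to 6277 for Atractylodis. For the added doses it gave 2 to 5 and 3298 to 4404 at 20 µg/mL Poria, 4 to 7 and 4309 to 5386 at 100 µg/mL Poria, 3 to 4 and 2926 to 4058 at 20 µg/mL Atractylodis, and 4 to 5 and 4269 to 5239 at 100 µg/mL Atractylodis.

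No paired analysis was possible because every treated library carries replicate number 2, which each treated group shares with only 1 vehicle library. Precision differed between members: at 500 µg/mL Poria the SE was 0.06 for BLVRB and 0.05 for SLC11A2, beside 0.04 for HMOX1 and FTH1. FTL, with 75719 counts in that library, also had an SE of 0.05, so the SE did not follow depth alone. Other limits are 1 library per extract and dose, and GC-related shifts that move with treatment.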

Other observations

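Small MAF proteins pair with NRF2 and with BACH1 on DNA, and MAFF, one of their genes, was noticed after its values were seen. MAFF fell in treated against vehicle libraries by 0.66 ± 0.05 on the log2 scale (edgeR adjusted p = 5.9e-07), by 0.53 at 500 µg/mL Poria (adjusted p = 7.5e-07) and by 0.68 at 500 µg/mL Atractylodis (adjusted p = 3e-08). MAFG rose at 500 µg/mL of both extracts (0.12 with Poria, adjusted p = 0.044, and 0.16 with Atractylodis, adjusted p = 0.0074) and was below the vehicle mean of 58.4 CPM at every lower dose, where it fell at 20 µg/mL Poria (-0.17, adjusted p = 0.012) and 100 µg/mL Atractylodis (-0.14, adjusted p = 0.029). ALAS1, the rate-limiting enzyme of heme synthesis, also rose at 500 µg/mL of both, to 76.5 CPM with Poria and 69.7 CPM with Atractylodis, against 63.1 ± 1.07 CPM in vehicle cells (0.28, adjusted p = 1.7e-05, and 0.14, adjusted p = 0.013), and passed at none of the lower doses (adjusted p = 0.29 to 0.86).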
